A study of Mus musculus with 8 samples.

Results

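The 31 genes described here make cholesterol or move it in lipoproteins. They were taken as a list by gene symbol from the 2 deposited count tables, and 31 of 31 were found among the 31053 genes measured. The list holds 18 enzymes of the synthesis pathway (Acat2, Hmgcs1, Mvk, Pmvk, Mvd, Idi1, Fdps, Fdft1, Sqle, Lss, Cyp51, Tm7sf2, Msmo1, Nsdhl, Hsd17b7, Ebp, Sc5d and Dhcr7), the side-branch enzyme Ggps1, 5 regulators (Insig1, Insig2, Srebf1, Srebf2 and Scap) and 7 genes of transport and storage (Apoe, Abca1, Abcg1, Lpl, Stard4, Lcat and Soat1). Their levels were followed in 8 cell populations of the adult dentate gyrus. The mice were male Nestin-GFP animals of 8 weeks, which carry GFP under control elements of the nestin gene. Control mice had a sham craniotomy and TBI mice a unilateral controlled cortical impact, and the dentate gyri were taken on day 15 after surgery. The tissue of a condition was pooled, GFP-positive live cells were sorted, and 1 droplet library (10x Genomics 3' chemistry, v3) was made per condition, so that the sort decided which cells could be seen. The sample labels list 4 animals per condition, the study's text gives another number, and no cell can be traced to an animal. With 1 library per condition there were no replicates and no test was made, and every interval below covers counting error only.

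Cholesterol does not cross the blood-brain barrier, so brain cells make their own. The enzymes turn acetyl-CoA into squalene and squalene, by way of lanosterol, into cholesterol. Their genes share a control loop in which SCAP escorts the SREBP factors out of the endoplasmic reticulum when sterols are low, and the INSIG proteins hold them back when sterols are high. Oligodendrocytes need cholesterol for myelin, and astrocytes load it onto particles of apolipoprotein E that neurons take up.

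Since the enzymes share this control loop, their promoters are shown first. RefSeq promoters on GRCm38.p6, from 250 bases before to 50 after the transcription start, were at hand for 25 of the 31 genes, with 35 promoters in all, and there was no entry for Fdps, Fdft1, Sqle, Abcg1, Lpl and Stard4. The sterol regulatory element, searched as TCACNCCAC on both strands, occurred in 1 of the 25 genes, Hmgcs1, against 1.44% of all 27025 genes with a promoter. The CCAAT box (CCAAT, both strands), bound by the NF-Y factor that works beside SREBP, occurred in 21 of the 25 genes against 41.1% of all genes, and in 22 of the 35 promoters (62.9%) against 37.4% of all promoters. The GC box (GGGCGG, both strands) likewise occurred in 21 of the 25 genes, against 38.2%. The LXR element, searched as AGGTCA, 4 bases and AGGTCA on both strands, occurred in 0 of the 25 genes and in 5 of all 32851 promoters. None of these motifs contains another. Only exact matches to the letters given were counted, and sites that depart from them were not sought. Hmgcs1 holds the only exact match to the sterol regulatory element among the 25 genes. Msmo1 differed most in amount between astrocyte-like cells and oligodendrocytes. Idi1 was the only 1 of the 18 enzymes at least 2-fold apart between progenitors and neuroblasts in both libraries. Of all genes, 10.9% were higher in progenitors by that rule. The 250 bases before the RefSeq start of these 3 enzyme genes are therefore printed. They are written 5' to 3' on the gene's strand, with the sterol regulatory element and the CCAAT boxes of either strand in capitals (a box on the other strand reads ATTGG).
Hmgcs1, chr13:119690101-119690350, plus strand: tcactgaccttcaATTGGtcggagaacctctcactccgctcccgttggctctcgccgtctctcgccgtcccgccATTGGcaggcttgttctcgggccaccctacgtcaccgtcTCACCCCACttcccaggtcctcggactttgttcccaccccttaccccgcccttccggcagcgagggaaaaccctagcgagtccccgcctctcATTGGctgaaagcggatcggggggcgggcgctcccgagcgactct
Msmo1, chr8:64733579-64733828, minus strand: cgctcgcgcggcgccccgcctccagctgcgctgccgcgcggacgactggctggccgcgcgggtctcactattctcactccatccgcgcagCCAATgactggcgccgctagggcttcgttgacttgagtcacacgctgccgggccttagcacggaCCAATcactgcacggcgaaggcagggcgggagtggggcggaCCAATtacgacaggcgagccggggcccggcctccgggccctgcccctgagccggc
Idi1, chr13:8885356-8885605, plus strand: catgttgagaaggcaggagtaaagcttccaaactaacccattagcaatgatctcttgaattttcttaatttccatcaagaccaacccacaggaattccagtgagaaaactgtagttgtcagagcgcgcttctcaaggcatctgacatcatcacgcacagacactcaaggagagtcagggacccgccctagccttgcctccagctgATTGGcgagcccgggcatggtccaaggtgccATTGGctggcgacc
Before its RefSeq start Hmgcs1 thus holds 1 sterol regulatory element and 3 CCAAT boxes, Msmo1 holds 3 CCAAT boxes and Idi1 holds 2. The annotation used for gene positions starts Msmo1 at 64733792 and Idi1 at 8885501, upstream of these RefSeq starts. By that annotation the CCAAT boxes printed for Msmo1 and Idi1 lie inside the gene. No promoter of Apoe in the table (3 starts) held any of the 4 motifs. A match in this window is a description of the letters and was not linked to binding or to any level below.

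After filtering, 3048 Control and 5033 TBI cells were kept, with medians of 6933 and 5676 unique molecular identifiers (UMIs, tags that mark single captured RNA molecules) per cell, and 3 cell barcodes were shared between the libraries. Cells were clustered without the 31 genes and the other genes of the pathway, and clusters were named from fixed markers, so each name stands for cells like that type. The populations, with Control and TBI cells, were oligodendrocytes (569 and 1102), their precursors (OPC, 28 and 56), astrocyte-like cells (616 and 536), neural stem cells (NSC, 232 and 327), radial glia-like cells (RG-like, 139 and 199), neuroblasts (545 and 940), endothelial cells (263 and 570) and mural cells (251 and 608). The summed markers of each population were highest in the population named for them. Lists of other types were also high in some populations. In OPC the 8 oligodendrocyte markers summed to 23292 CPM in Control and 5601 in TBI, while the 8 precursor markers summed to 4523 CPM in Control and 6299 in TBI. In RG-like cells the NSC list summed to 7207 CPM in Control and 6801 in TBI and their own list to 6726 CPM in Control and 6260.1 in TBI, and in neuroblasts the NSC list summed to 8398 CPM in Control and 7949 in TBI and their own to 12466 CPM in Control and 12921 in TBI. A level is given as a scaled count (CPM), that is, a gene's UMIs in the cells of a population and library together, scaled to 1000000 UMIs without those of Malat1. Eomes, a factor of intermediate progenitors, was at 456 to 1046 CPM over the 4 NSC clusters in Control and 505 to 986 in TBI. Over the 2 RG-like clusters it was at 659 to 849 and 616 to 783 CPM. The names NSC and RG-like thus follow the marker lists and do not set stem cells apart from intermediate progenitors.

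As a share of all UMIs, the enzymes as a group were, among the 8 populations, highest in astrocyte-like cells and lowest in the vascular cells, in both libraries. Astrocyte-like cells had medians of 4165 and 3078.5 UMIs per cell in Control and TBI, against 10169 and 8261.5 in oligodendrocytes. The order below is thus one of shares and not of enzyme UMIs per cell. The sum over the 18 enzymes was 2768 CPM in Control (95% interval 2702 to 2835) and 2594 CPM in TBI (2514 to 2677) in astrocyte-like cells. Oligodendrocytes held 1394 CPM in Control (95% interval 1363 to 1425) and 1389.6 CPM in TBI (1365 to 1415). OPC were close to them, with 1400.0 CPM in Control (95% interval 1248 to 1565) and 1185 CPM in TBI (1076 to 1302). The proliferating and radial glia-like progenitors lay close to the oligodendrocytes, NSC with 1275 and 1362 CPM and RG-like cells with 1272 and 1152 CPM. Neuroblasts were lower, with 913 CPM in Control (95% interval 889 to 939) and 908 CPM in TBI (886 to 929.9). Mural cells held 586 and 553 CPM and endothelial cells 499.8 and 484 CPM. The ratio of astrocyte-like cells to oligodendrocytes was 1.99 (95% interval 1.92 to 2.05) in Control and 1.87 (95% interval 1.8 to 1.94) in TBI. Msmo1 alone gave 743 and 673 CPM of the astrocyte-like sum and 159.7 and 160.1 CPM of the oligodendrocyte sum. The ratio of NSC and RG-like cells together to neuroblasts was 1.39 (95% interval 1.35 to 1.45) and 1.41 (95% interval 1.37 to 1.46). OPC and oligodendrocytes could not be told apart in Control, with a ratio of 1.0 (95% interval 0.893 to 1.13), whereas in TBI the ratio was 0.853 (95% interval 0.773 to 0.939). The Control OPC also held more of the oligodendrocyte markers than the TBI OPC, as given above. In OPC 5 cells held 65.6% of the Hmgcs1 UMIs in Control and 50.8% in TBI. The part of either in these ratios was not tested. Endothelial cells lay slightly below mural cells, at 0.853 (95% interval 0.765 to 0.95) and 0.876 (95% interval 0.804 to 0.955). In this order of sums the interval of OPC overlapped those of oligodendrocytes, NSC and RG-like cells in Control, and that of NSC overlapped the RG-like one. In TBI the intervals of oligodendrocytes and NSC overlapped, as did those of OPC and RG-like cells.

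**Figure D1:**
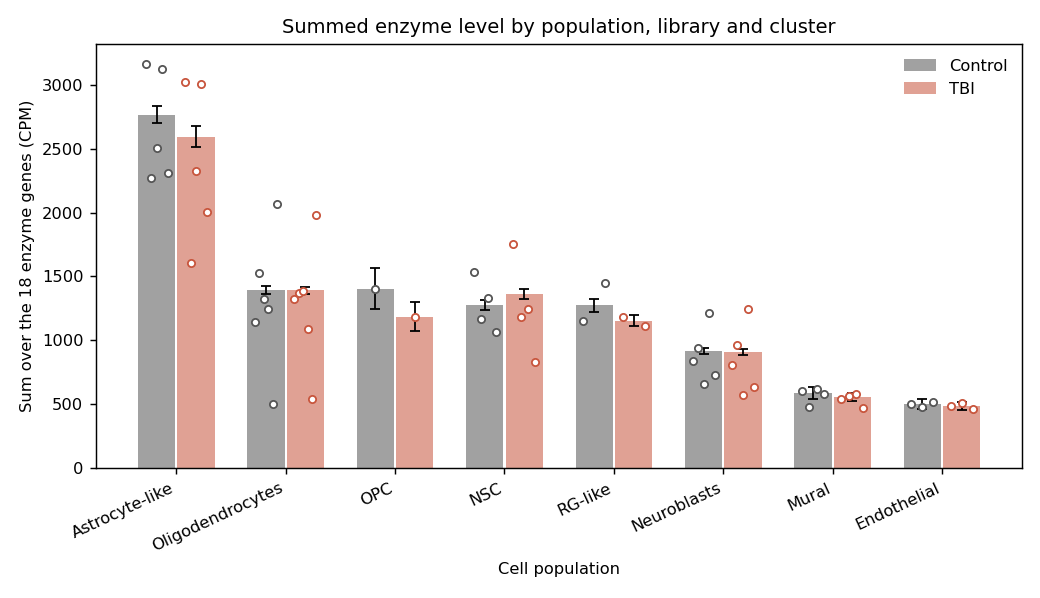
Sum of the 18 enzyme genes in CPM (y axis) in each population (x axis), with grey bars for the Control and red bars for the TBI library, black exact 95% Poisson intervals of counting error, and open circles for the single clusters of the population. Astrocyte-like cells stand at 2768 and 2594 CPM above all others, and the clusters of oligodendrocytes spread from 501 to 2064 CPM in Control.

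Within oligodendrocytes and neuroblasts the enzyme sum differed between clusters, with the same clusters highest and lowest in both libraries. Among oligodendrocytes, the cluster led by Rab7b and Shisa8, which also had the most UMIs per cell (median 14504) and the highest summed oligodendrocyte markers (93431 and 98771 CPM in Control and TBI), held 2064 and 1981 CPM of the enzymes. The cluster led by Sec14l5 and Ccdc187, with the fewest UMIs (median 2082), held 501 and 542 CPM, and the other 4 clusters lay between 1092 and 1529 CPM. The share that depth and RNA content have in this spread was not tested. Hmgcs1, which makes the substrate of the mevalonate branch, followed the sum, with 546 and 495 CPM in the first of these clusters and 100.3 and 114 CPM in the second. In neuroblasts a shallow cluster led by Fabp3 is given last. Over the others the sum went down from the cluster with most Eomes to that with least, led by Gal and Adamts18. It was 1215 and 1241 CPM in the cluster led by Tac2 and Mpped1 (Eomes 787 and 765 CPM), 936 and 960.0 CPM in the one led by Tubb3 and Nhlh1 (400.1 and 362 CPM), 838 and 804 CPM in the one led by Zfp385b and Calb2 (187 and 157 CPM) and 655 and 574 CPM in the one led by Gal (76.4 and 81.6 CPM). The Fabp3 cluster, with a median of 3445 UMIs per cell, held 727 and 637 CPM. Depth fell in the same order as the sum in the other neuroblast clusters. The medians were 10236 UMIs in the Tac2 cluster, 9752 in the Tubb3 cluster, 9140 in the Zfp385b cluster and 7770 in the Gal cluster. The share of depth in this order was not tested either. Among the progenitors the NSC cluster led by Neurod4, with 1046 and 986 CPM of Eomes, was highest at 1533 and 1757 CPM. The 5 clusters of astrocyte-like cells lay between 2270.3 and 3162 CPM in Control and between 1603 and 3020.3 in TBI.

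Astrocyte-like cells against oligodendrocytes gave the widest separation of the members. Of 30 members with at least 20 UMIs in the 2 populations of each library, 13 were at least 2-fold higher in astrocyte-like cells in both libraries and 2 were at least 2-fold lower. Over all 11173 genes with that count, 25.3% were higher and 12.7% lower by this rule. The median log2 difference of the members was 0.96 in Control and 0.83 in TBI, against 0.28 and 0.26 over all those genes. Of the 18 enzymes, 8 were among the higher and 1 among the lower. Lpl had too few UMIs here and in the comparison of OPC with oligodendrocytes, and Lcat in that of progenitors with neuroblasts.

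The enzyme that differed most in amount was Msmo1 (chr8:64718139-64733792, GRCm38). It is the oxidase that starts the removal of the methyl groups left on the sterol ring after Cyp51 has acted. It was measured at 743 CPM in Control and 673 in TBI in astrocyte-like cells (95% intervals 709 to 778 and 632 to 716) and at 159.7 and 160.1 CPM in oligodendrocytes. This made it higher 4.65-fold in Control and 4.2-fold in TBI. Nsdhl, which acts on the same methyl groups, was at 73.8 and 64.9 CPM against 15.2 and 16.2 CPM in Control and TBI. Hsd17b7, the third enzyme of that step, was at 64.8 and 54.3 CPM against 30.3 and 26.4 CPM. The 3 genes for the removal of these methyl groups were thus all among the higher, while Cyp51, which removes another methyl group, was not. Sqle, the epoxidase that commits squalene to sterols, was at 189 and 194 CPM against 44.2 and 45.5 CPM. Fdft1, which joins farnesyl units into squalene, was at 130.4 and 141 CPM against 62.2 and 54.6 CPM. Mvd, the decarboxylase of the mevalonate branch, was at 56.2 and 62.9 CPM against 15.3 and 17.2 CPM, and Dhcr7, the reductase of the last step of one route to cholesterol, at 89.4 and 80.1 CPM against 33.8 and 32.9 CPM. Tm7sf2, a sterol reductase, had the largest fold of the enzymes in both libraries, at 35.3 and 37.7 CPM against 4.76 and 2.77 CPM.

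One enzyme ran the other way. Ebp, the isomerase that moves the double bond of the sterol ring, was at 85.0 and 100.2 CPM in oligodendrocytes and at 29.5 and 28.5 CPM in astrocyte-like cells, which made it lower in the latter by 2.88-fold in Control and 3.52-fold in TBI. Its level in oligodendrocytes was the highest of the 8 populations, clear of the next by the counting intervals in both libraries. Endothelial and mural cells came next, between 57.6 and 70.8 CPM, while NSC, RG-like cells and neuroblasts lay between 27.5 and 35.6 CPM. The other 9 enzymes stayed within 2-fold between astrocyte-like cells and oligodendrocytes in at least 1 library. Of these, Fdps was nearly level, at 116 and 101 CPM against 118 and 122 CPM, and Sc5d, the desaturase that follows Ebp, was at 179.6 and 158 CPM against 134 and 134 CPM. Hmgcs1 was at 428 and 384 CPM against 290.0 and 277 CPM, and Cyp51, which demethylates lanosterol, at 197 and 222 CPM against 129.6 and 131 CPM. Idi1, the isomerase of the isoprene unit, was at 196 and 171 CPM against 105 and 98.1 CPM, and Acat2, Mvk, Pmvk and Lss differed by at most 2.02-fold. In all, astrocyte-like cells had the highest level of 14 of the 18 enzymes in both libraries, with intervals clear of the second population for 4 of them (Hmgcs1, Cyp51, Msmo1 and Dhcr7).

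**Figure D2:**
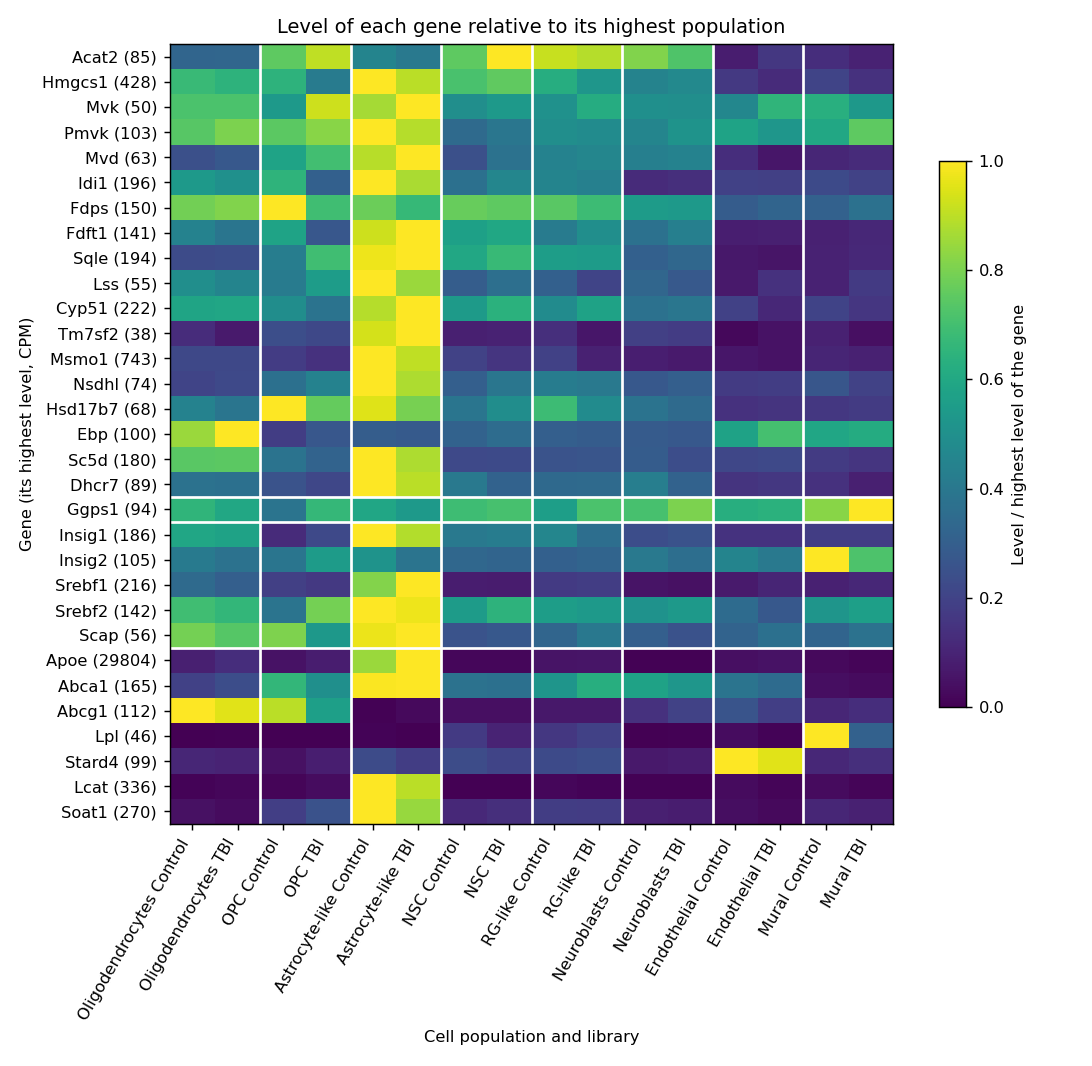
Level of each of the 31 genes (rows, with the gene's highest level in CPM) in the 8 populations of the 2 libraries (columns), coloured as a share of the gene's highest level. White lines part enzymes, Ggps1, regulators and transport genes. The astrocyte-like columns are the brightest for most enzymes, while Ebp and Abcg1 are brightest in oligodendrocytes, Stard4 in endothelial cells, and Ggps1, Insig2 and Lpl in mural cells.

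**Figure D3:**
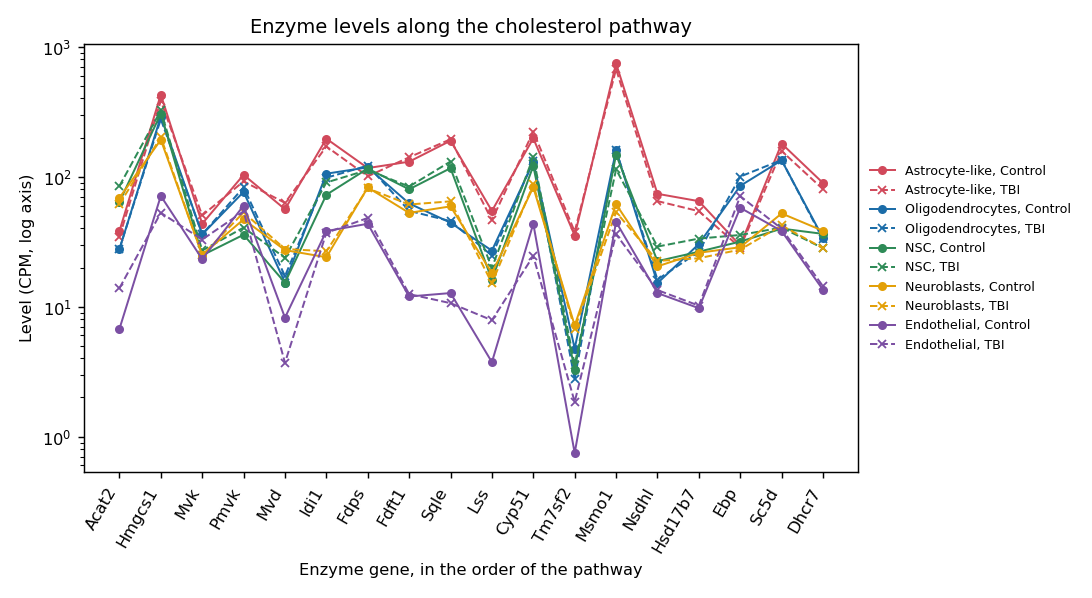
Level of the 18 enzyme genes in CPM on a log axis (y axis), in the order of the pathway (x axis), in 5 populations, with circles and solid lines for Control and crosses and dashed lines for TBI. Lines only join the points of a population. The astrocyte-like points lie highest at most steps, from 743 CPM for Msmo1 in Control downwards, but not at Acat2, Fdps and Ebp.

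Progenitors against neuroblasts set NSC and RG-like cells, pooled whether cycling or not, beside cells further along the neuronal lineage. Exit from the cell cycle was not scored. Of 30 members with enough UMIs, 5 were at least 2-fold higher in NSC and RG-like cells together in both libraries and 1 was lower, while 10.9% of 11902 genes were higher and 8.29% lower. The members' median log2 difference was 0.22 in Control and 0.37 in TBI, against -0.03 and 0.04 over all genes. Among the enzymes only Idi1 passed, with 78.1 CPM in progenitors against 24.0 in neuroblasts in Control, and 88.3 against 26.7 in TBI. Neuroblasts had the lowest Idi1 of the 8 populations in both libraries. The regulator Srebf1, the SREBP gene most tied to fatty acid synthesis, was at 24.1 and 25.3 CPM in progenitors against 11.3 and 9.34 in neuroblasts. Stard4, a carrier of sterols in the cytosol, was at 22.7 and 21.7 CPM against 6.63 and 7.45. Lpl, a lipase of circulating and tissue lipoproteins, was low in progenitors (7.81 and 6.33 CPM) and rested on 1 UMI in Control and 2 UMIs in TBI neuroblasts, so that its ratios, 43.6 (95% interval 7.43 to 1761) and 23.4 (6.03 to 200.1), are loose. Apoe was at 939 and 974 CPM in progenitors, higher than in neuroblasts 4.57-fold in Control and 7.18-fold in TBI, although doublets carried part of the neuroblast level, as given below. Abcg1, an exporter of cholesterol, was the member that was lower, with 5.32 and 5.65 CPM in progenitors against 15.8 and 21.8 in neuroblasts.

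OPC against oligodendrocytes left the members near level at the median, while all genes leaned toward OPC. Of 30 with enough UMIs, 4 were at least 2-fold higher in OPC in both libraries and 2 lower, beside 17.9% and 8.17% of 10047 genes. The members' median log2 difference was -0.07 and -0.10, that of all genes 0.36 and 0.48. Acat2, the thiolase at the head of the pathway, was at 63.6 and 76.6 CPM in OPC against 27.7 and 27.8 CPM in oligodendrocytes, and Mvd at 36.4 and 43.8 CPM against 15.3 and 17.2 CPM. Soat1, which esterifies cholesterol for storage, was at 50.0 and 68.4 CPM against 12.2 and 8.19 CPM, and the exporter Abca1 at 109 and 82.1 CPM against 31.9 and 39.0 CPM. The 2 lower members were Ebp, with 18.2 and 27.4 CPM, and Insig1, with 22.7 and 41.0 CPM against 110.2 and 107 CPM. The 28 Control OPC carried 4 UMIs of Ebp and 5 of Insig1, and these cells also held the oligodendrocyte markers given above, whose part in the comparison was not tested.

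Between endothelial and mural cells, the 2 vascular populations, no enzyme passed the fold. Of 28 members with enough UMIs, 2 were at least 2-fold higher in endothelial cells in both libraries and 2 lower, against 11.5% and 13.3% of 9729 genes, and Mvd, Lss and Tm7sf2 had too few UMIs. The members were thus called no more often than all genes. The median log2 difference was -0.20 and -0.17 for the members and -0.07 and -0.15 for all genes. Stard4 was at 98.8 CPM in Control and 94.4 in TBI in endothelial cells and at 11.2 and 13.4 CPM in mural cells. Its endothelial level was the highest of the 8 populations, with intervals clear of the next (NSC in Control with 22.9 CPM, RG-like cells in TBI with 23.9). Abca1 was at 63.6 and 57.4 CPM in endothelial and 6.02 and 5.15 CPM in mural cells. Soat1 and Lpl were the lower members. Soat1 stood at 10.5 and 6.94 CPM in endothelial against 29.2 and 24.7 CPM in mural cells. Lpl stood at 1.5 and 0.463 CPM against 46.4 and 14.4 CPM and thus reached its highest level in mural cells. There it was lower in the TBI library, from 54 UMIs in Control and 28 in TBI, too few for the comparison of conditions. Over the mural clusters Lpl ranged from 2.09 to 125 CPM in Control and from 0 to 96.1 CPM in TBI. The mural cluster led by Pln and Acta2 held 51 of the 251 Control and 41 of the 608 TBI mural cells. The part of this mix in the Lpl levels was not tested.

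The regulators were spread unevenly over the populations, Srebf1 and Insig1 most toward astrocyte-like cells. Srebf2, the SREBP gene most tied to cholesterol synthesis, was found at 38.9 to 142 CPM over the 8 populations and 2 libraries. Srebf1 was more uneven, at 176 CPM in Control and 216 in TBI in astrocyte-like cells, 75.1 and 65.7 CPM in oligodendrocytes and 11.3 and 9.34 CPM in neuroblasts. Scap, the escort protein, lay between 41.4 and 56.3 CPM in astrocyte-like cells and oligodendrocytes and between 14.1 and 22.5 in NSC, RG-like cells, neuroblasts and the vascular cells. Insig1, itself a target of SREBP, was highest in astrocyte-like cells (186 and 165 CPM) and next in oligodendrocytes (110.2 and 107 CPM), and Srebf1 kept the same order, both with intervals clear of the second population. Insig2 was instead highest in mural cells, with 105 and 75.7 CPM against 47.1 and 42.6 CPM in endothelial cells and 53.7 and 40.4 CPM in astrocyte-like cells. Its mural interval in TBI (64.0 to 89.0) overlapped that of the next population, OPC. The side-branch enzyme Ggps1, which makes the geranylgeranyl groups that anchor small GTPases, lay between 51.0 and 94.2 CPM in the 7 populations other than OPC.

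Among the transport genes, the exporters Abca1 and Abcg1 were distributed in opposite ways between astrocyte-like cells and oligodendrocytes. Abca1, which loads cholesterol onto lipid-poor apolipoproteins, was at 164 CPM in Control and 165 in TBI in astrocyte-like cells and at 31.9 and 39.0 CPM in oligodendrocytes. Abcg1, which passes it on to lipidated particles, was at 112 CPM in Control and 107 in TBI in oligodendrocytes, and OPC came second with 22 and 23 UMIs (62.9 CPM in TBI). In astrocyte-like cells Abcg1 gave 2 UMIs in Control and 4 in TBI, or 0.82 and 2.65 CPM. After each cell was thinned to 2000 UMIs, which left out 20 Control and 89 TBI oligodendrocytes and 73 and 163 astrocyte-like cells of lower depth, 17.3% of Control and 17.7% of TBI oligodendrocytes held an Abcg1 UMI, against 0.184% and 0.804% of astrocyte-like cells (unthinned 58.3% and 50.5% against 0.325% and 0.746%). For Abca1 the thinned shares were 6.01% and 6.22% of oligodendrocytes and 23.2% and 23.9% of astrocyte-like cells. Neuroblasts, NSC, RG-like and endothelial cells held more Abca1 than Abcg1, with Abca1 between 57.4 and 103 CPM and Abcg1 between 4.37 and 29.2. Mural cells held little of either.

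The esterifying enzymes Lcat and Soat1 were both highest in astrocyte-like cells, clear of the next population by the intervals. Lcat, which esterifies cholesterol on lipoproteins, was at 336 CPM in Control and 300.5 in TBI in astrocyte-like cells and at no more than 10.9 CPM in any of the other 7 populations. Soat1 was at 270.2 CPM in Control and 228 in TBI there, with OPC next (50.0 and 68.4 CPM) and oligodendrocytes at 12.2 and 8.19 CPM. The thinned share of cells with an Lcat UMI was 32.6% and 36.2% in astrocyte-like cells, beside 0.368% and 0.214% in neuroblasts, whose median depth was 10977 and 8281 UMIs against 4165 and 3078.

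Apoe (chr7:19696109-19699188, GRCm38), the main apolipoprotein of the brain, was by far the most abundant member in astrocyte-like cells, at 25332 CPM in Control and 29804 in TBI. Oligodendrocytes held 2578 and 3933 CPM, RG-like cells 1607 and 1709.8 CPM, OPC 1509 and 2405 CPM, endothelial cells 1237 and 1414 CPM, mural cells 741 and 376 CPM, NSC 579 and 522 CPM and neuroblasts 206 and 136 CPM. Within the astrocyte-like cells it ranged more widely than the enzymes did. The cluster led by Atp13a4 and Gdpd2 held 4749 and 6029 CPM of Apoe with 2270.3 and 1603 CPM of the enzymes. The cluster led by Clu and Cxcl14 held 44955 and 49589 CPM of Apoe with 2506 and 2327 CPM of the enzymes, so Apoe differed several times over while the enzyme sums lay close together in Control. Both clusters were shallow, with medians of 2628 UMIs per cell in the Atp13a4 cluster and 1819 in the Clu cluster. The share that depth and RNA content have in this Apoe difference was not tested. Among oligodendrocyte clusters the order of the 2 measures was not the same. The cluster with the highest enzyme sum, led by Rab7b, had 692 and 1349 CPM of Apoe, the lowest level in Control and the second lowest in TBI, while the clusters led by Il33 reached 3545 and 4830.0 CPM and 3818 and 5605 CPM.

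Between the conditions the enzymes as a group were close. The ratio of the enzyme sum in TBI to that in Control was 0.997 (95% interval 0.969 to 1.03) in oligodendrocytes and 0.994 (95% interval 0.958 to 1.03) in neuroblasts, where the interval included 1. It was 0.969 (95% interval 0.878 to 1.07) in endothelial and 0.943 (95% interval 0.855 to 1.04) in mural cells, again with 1 inside the interval. The intervals left out 1 in astrocyte-like cells, 0.937 (95% interval 0.901 to 0.975), in RG-like cells, 0.906 (95% interval 0.857 to 0.957), and in OPC, 0.846 (95% interval 0.73 to 0.983), and on the other side in NSC, 1.07 (95% interval 1.03 to 1.11). The sum was lower in TBI in each of the 5 astrocyte-like clusters, which share the 2 libraries and are not replicates. The widest of these differences was from 2270.3 to 1603 CPM, in the cluster led by Atp13a4. In the other populations with more than 1 cluster, the clusters went both ways. The ratio farthest from 1 was that of OPC, and the spread between libraries of 1 condition is not known. The oligodendrocyte markers of OPC also differed between the libraries, as given above, and their part in this ratio was not tested. Of the 163 pairs of a member and a population with at least 100 UMIs in both libraries together and 10 in each, 3 were at least 1.5-fold higher in TBI and 5 lower.

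**Figure D4:**
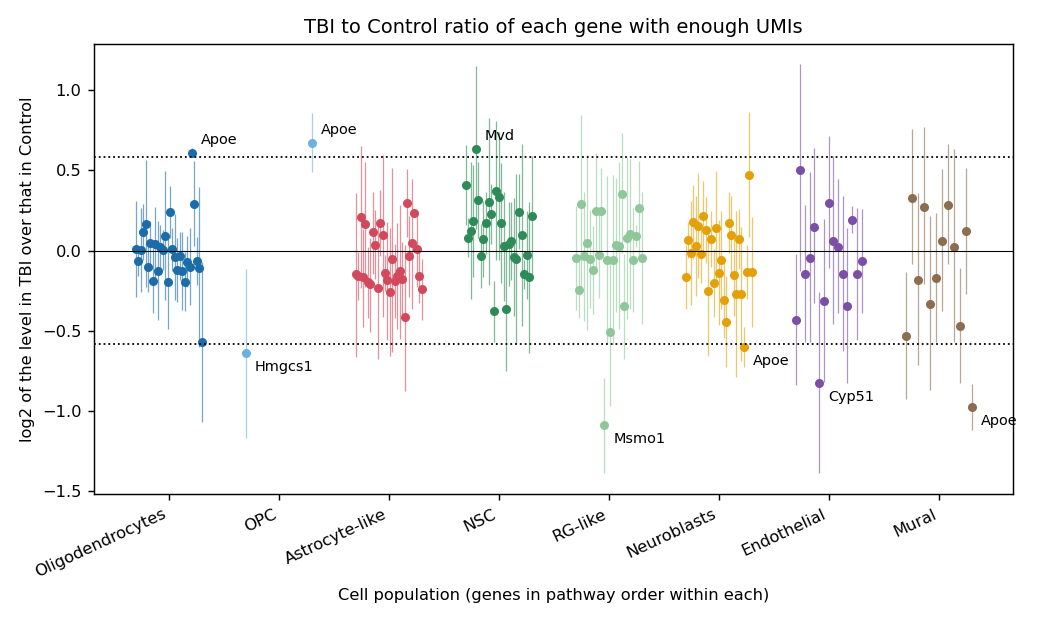
Log2 of the level in TBI over that in Control (y axis) for each gene with enough UMIs in each population (x axis), with vertical lines for exact 95% intervals of counting error and dotted lines at 1.5-fold. Most points lie between the dotted lines, and the named points are the 8 outside, with Msmo1 in RG-like cells lowest at -1.09.

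By population, 1 of 28 members was higher and 0 lower in oligodendrocytes, where 0.964% of 8609 genes were higher and 0.825% lower by the same rule. In astrocyte-like cells 0 of 28 members passed either way (all genes 0.977% and 1.58%), and the member farthest from 1 had a log2 ratio of -0.41. In NSC 1 of 27 was higher and 0 lower (all genes 2.1% and 2.25%), and in RG-like cells 0 of 24 were higher and 1 lower (1.62% and 0.877%). In neuroblasts 0 of 27 were higher and 1 lower (0.569% and 1.11%). In endothelial cells 0 of 15 were higher and 1 lower (1.56% and 1.02%), and in mural cells 0 of 12 were higher and 1 lower (7.07% and 5.09%). OPC had UMIs enough for 2 members, 1 higher and 1 lower, where 19.4% and 10.7% of 1148 genes passed. No population thus had more than 1 member past the fold in a direction. In all pairs together this came to 1.84% higher and 3.07% lower. Over all genes the shares by population ran from 0.569% to 19.4% higher and from 0.825% to 10.7% lower, so the members' totals lay within them. The members without enough UMIs were Abcg1, Lpl and Stard4 in astrocyte-like cells and Tm7sf2, Lpl and Lcat in oligodendrocytes. NSC lacked Tm7sf2, Abcg1, Lpl and Lcat, neuroblasts Tm7sf2, Lpl, Stard4 and Lcat, and RG-like cells Lss, Tm7sf2, Scap, Abcg1, Lpl, Stard4 and Lcat. The UMIs were too few for 29 members in OPC, for 19 in mural and for 16 in endothelial cells. The median log2 ratio of the members lay between -0.15 in astrocyte-like cells and 0.10 in NSC, against -0.00 and 0.02 for all genes there.

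Apoe was higher in TBI oligodendrocytes, with 14625 UMIs in Control and 34078 in TBI and a ratio of 1.53 (95% interval 1.5 to 1.56). It was higher in each of the 6 oligodendrocyte clusters, which share the 2 libraries and are not replicates. The levels in Control and TBI were 3545 and 4830.0 CPM in the Il33 cluster, 2895 and 3687 CPM in the Btbd16 cluster, 2186 and 4103 CPM in the Klk6 cluster, 3818 and 5605 CPM in the Il33 and Ptgds cluster, 874 and 1279.8 CPM in the Sec14l5 cluster and 692 and 1349 CPM in the Rab7b cluster. The median over cells went the same way, from 2119 to 3408 CPM. Without the Il33 and Ptgds cluster, of which 86.2% of cells were from TBI, the ratio was 1.43 and so under 1.5. Thinned to 2000 UMIs, 85.4% (exact 95% interval 82.2 to 88.3) of Control and 93.4% (exact 95% interval 91.7 to 94.8) of TBI oligodendrocytes held an Apoe UMI, and the unthinned shares were 93.1% and 94.1%. The 10 astrocyte markers summed to 445 CPM in Control and 377 in TBI in oligodendrocytes, with 0 of the 10 at 0. Apoe UMIs per astrocyte-marker UMI were 5.79 and 10.4 in oligodendrocytes against 0.926 and 1.12 in astrocyte-like cells. The 8 microglia markers summed to 28.0 CPM in Control and 24.5 in TBI. Other lists were higher in the TBI oligodendrocytes, the endothelial markers with 44.4 CPM in Control and 116 in TBI, the mural markers with 8.11 CPM in Control and 18.01 in TBI and 8 immediate early genes with 89.6 CPM in Control and 175 in TBI, and their part in the Apoe ratio was not tested. In astrocyte-like cells Apoe had a ratio of 1.18 (95% interval 1.16 to 1.19), under the fold.

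**Figure D5:**
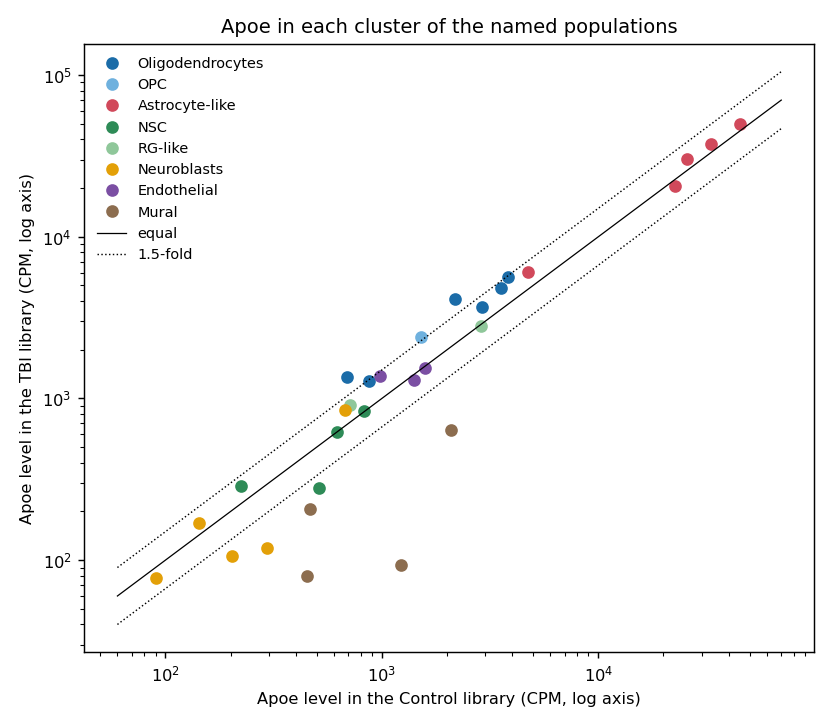
Apoe level in each cluster of the 8 populations in the Control library (x axis) and in the TBI library (y axis), both in CPM on log axes, with a solid line at equal levels and dotted lines at 1.5-fold. The 6 oligodendrocyte clusters lie above the line of equal levels, and the 4 mural clusters lie below the lower dotted line.

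In mural cells and neuroblasts Apoe was lower in TBI, and in both a few cells carried much of it in Control. Mural cells had a ratio of 0.508 (95% interval 0.46 to 0.561), with all 4 clusters lower. The 5 mural cells with the most Apoe held 44.5% of its 862 UMIs in Control and 42.8% of its 731 UMIs in TBI. Doublets, 6 in Control and 4 in TBI, carried 32.6% and 20.8% of the mural Apoe UMIs. Without doublets the mural levels were 529 CPM in Control and 305 in TBI. The astrocyte markers were also lower there, at 1322 CPM in Control and 896 in TBI, and Clu, an apolipoprotein of astrocytes, at 101 and 22.1 CPM. Without the mural cluster richest in TBI cells the ratio was 0.333. In neuroblasts the ratio was 0.66 (95% interval 0.606 to 0.719). Of the 1148 Apoe UMIs of Control neuroblasts, 538 came from 7 of the 545 cells that were called doublets, and without doublets the ratio turned to 1.08. The thinned share of neuroblasts with an Apoe UMI was 21.0% (exact 95% interval 17.6 to 24.7) and 17.4% (exact 95% interval 15.1 to 20.0), beside 38.5% and 34.5% for Slc1a3 and 2.39% and 1.07% for Aldoc, both astrocyte markers. In endothelial cells that share was 74.1% (exact 95% interval 68.2 to 79.4) and 80.9% (exact 95% interval 77.3 to 84.1), with 6.37% and 3.31% for Slc1a3 and 2.39% and 1.47% for Aldoc, and the Apoe ratio was 1.14 (95% interval 1.08 to 1.21). The part that free astrocyte RNA or doublets have in the mural and endothelial values was not tested beyond these figures. In OPC the ratio was 1.59 (95% interval 1.4 to 1.81), but 5 of the 28 Control OPC held 80.7% of the Control UMIs, and the oligodendrocyte markers also differed between the libraries, as given above.

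Msmo1 in RG-like cells was the enzyme with the lowest ratio. It was measured at 143 CPM in Control and 67.1 in TBI, from 281 and 149 UMIs, a ratio of 0.47 (95% interval 0.383 to 0.576). It was lower in both RG-like clusters, at 131 and 62.3 CPM in the one led by Ung and Cdc6 and at 159 and 73.6 CPM in the one led by Hopxos and Adgrg6. After thinning, 22.3% (exact 95% interval 15.7 to 30.1) of Control and 12.6% (exact 95% interval 8.34 to 18.1) of TBI RG-like cells held a UMI of it. The astrocyte markers, whose cells hold most Msmo1, summed to 2012 CPM in Control and 1812 in TBI in RG-like cells, and Apoe there had a ratio of 1.06 (95% interval 1.01 to 1.12). The oligodendrocyte markers summed to 153 CPM in Control and 933 in TBI in these cells, the mural markers to 14.7 CPM in Control and 154 in TBI and the 8 immediate early genes to 2573 CPM in Control and 1646 in TBI. The part of these lists in the Msmo1 ratio was not tested. In NSC Msmo1 had a ratio of 0.769 (95% interval 0.675 to 0.875), under the fold, and was lower in 4 of the 4 clusters. In oligodendrocytes it had a ratio of 1.0 (95% interval 0.921 to 1.09). Astrocyte-like cells held 743 CPM in Control and 673 in TBI, lower in each of their 5 clusters. Endothelial cells held 44.9 and 36.1 CPM, lower in each of their 3 clusters, and OPC 132 and 107 CPM. Clusters of oligodendrocytes, neuroblasts and mural cells went both ways for Msmo1. The enzymes on either side of it, Tm7sf2 and Nsdhl, gave too few UMIs in RG-like cells for the former and a ratio of 0.96 (95% interval 0.667 to 1.38) for the latter.

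The other 3 members past the fold rested on fewer UMIs. Mvd in NSC had 56 and 86 UMIs and a ratio of 1.55 (95% interval 1.1 to 2.21), and without the NSC cluster highest in Eomes the ratio was 1.07. Cyp51 in endothelial cells had 58 and 53 UMIs, levels of 43.4 and 24.5 CPM and a ratio of 0.565 (95% interval 0.382 to 0.834). The 4 hemoglobin genes summed to 9226 CPM in Control and 1585 in TBI in the same endothelial cells, whose part in this was not tested. Hmgcs1 in OPC had 61 and 65 UMIs and a ratio of 0.641 (95% interval 0.445 to 0.925), and 5 cells held 65.6% of the Control UMIs. Just inside the limit lay Soat1 in oligodendrocytes, with a ratio of 0.674 (95% interval 0.477 to 0.952).

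Of 26 other genes of the pathway, fixed as a list, 11 of 25 with enough UMIs were at least 2-fold higher in astrocyte-like cells than in oligodendrocytes in both libraries and 6 were lower, beside 25.3% and 12.7% of all genes. Higher were Fads1, Fads2, Acss2, Lrp1, Lrp8, Nr1h3, Cyp46a1, Abcg4, Clu, Apoc1 and Pltp, and lower were Elovl6, Scd2, Vldlr, Lipa, Stard3 and Apod. The receptors that take up lipoproteins were thus divided, with Lrp1 at 264 and 277 CPM in astrocyte-like cells and 4.94 and 4.39 CPM in oligodendrocytes, and Vldlr at 40.6 and 38.4 CPM and 231 and 197 CPM. Progenitors against neuroblasts gave 1 higher (Pltp) and 4 lower (Lrp1, Vldlr, Abcg4 and Stard3) of 24, beside 10.9% and 8.29% of all genes. OPC against oligodendrocytes gave 3 higher (Lrp1, Lrp8 and Clu) and 5 lower (Scd1, Scd2, Lipa, Stard3 and Apod) of 19, beside 17.9% and 8.17% of all genes. Endothelial against mural cells gave 4 higher (Lrp8, Scarb1, Lipa and Pltp) and 3 lower (Lrp1, Nr1h3 and Mylip) of 19, beside 11.5% and 13.3% of all genes. Between conditions 0 of 16 passed 1.5-fold in astrocyte-like cells (all genes 0.977% higher and 1.58% lower). In mural cells 3 of 12 were higher in TBI and Clu was lower, where 7.07% of all genes were higher and 5.09% lower. The 3 were Nr1h3, the LXR alpha gene, at 62.7 and 120.0 CPM, Mylip at 135 and 241 CPM and Pltp at 73.1 and 124 CPM. The mural cluster richest in TBI cells held 44 of the 251 Control and 264 of the 608 TBI mural cells. The mural markers summed to 20618 CPM in Control and 28377 in TBI and the immediate early genes to 9102 CPM in Control and 12590.2 in TBI in mural cells, and the part of this mix in the pathway genes was not tested. Mylip was also higher in TBI endothelial cells (15.0 and 43.5 CPM), where Clu was lower. Clu was lower in RG-like cells and neuroblasts as well and higher in OPC, together with Lrp1, while Scd2 was lower there. Acss2 was higher in NSC and RG-like cells, and Pltp in oligodendrocytes (2.47 and 12.2 CPM). Pltp was at 3025 and 3171 CPM in endothelial cells, whose markers were also higher in the TBI oligodendrocytes, as given above, and their part in the Pltp values was not tested.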

How the data were processed

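Single-cell RNA of sorted Nestin-GFP-positive dentate gyrus cells was measured in 2 pooled libraries, Control and TBI. The authors mapped the reads with Cell Ranger 3.0.2 to GRCm38/mm10 and deposited raw UMI counts per gene and cell barcode. Which table belongs to which condition was taken from the rule that defined the gene list, and was checked against barcodes listed by condition in the study's supplement: 356 of 356 Control and 320 of 320 TBI barcodes lay in the table so named, and 0 in the other. The depth was 24629018 and 31501853 UMIs in the cells kept.

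Cells with at least 200 genes and a log UMI count within 3 median absolute deviations were kept, from 3086 and 5081 barcodes. Scrublet (scanpy 1.11.5) marked 38 and 110 cells as doublets (1.25% and 2.19%), which were kept except in an alternative. The libraries were integrated in Seurat 5.3.0 (R 4.3.3; 2000 variable genes without Malat1, the 31 genes and 26 further pathway genes; 20 dimensions; resolution 3), which gave 41 clusters. A cluster took the name of the marker list with the highest mean standardized level, and 8 clusters stayed unnamed (336 and 530 cells). Names rebuilt in this way may differ from the study's.

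UMIs were summed per population and library. Intervals were exact (Poisson for levels, conditional binomial for ratios, Clopper-Pearson for shares; scipy 1.17.1) at 95%. A gene was called between populations at 2-fold in both libraries with at least 20 UMIs in the 2 populations of each library, and between conditions at 1.5-fold with at least 100 UMIs in both libraries together and 10 in each. The text names every member past these folds, and other pathway genes by the same folds, with Vldlr and Lrp1 given as values among them. Soat1 and the neighbouring enzymes of Msmo1 were added after their values were seen. The calls between conditions were tried on simulated counts for oligodendrocytes and mural cells, with 2-fold changes and counting error only. These counts held no spread between cells or libraries, so the trial cannot speak to such spread. The members, gene lists and comparisons were chosen with earlier results of these data known. Alternatives covered filters, doublets, clustering, scaling, folds, count minimums and thinning depth, and 3 that leave out a cluster were chosen after seeing the data. A deposited sample sheet holds no measurement and was not used.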

Additional observations from a re-analysis of the deposited data

Results flagged for a closer look

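The ratio of the Apoe level in TBI to that in Control pointed in opposite directions between populations. It was 1.53 in oligodendrocytes, where all 6 clusters were higher in TBI, and 1.59 in OPC, the single cluster of that kind. It was 0.660 in neuroblasts and 0.508 in mural cells, where all 4 clusters were lower. With 1 library per condition the difference between populations was not tested. The neuroblast value rested on doublets, since without them it was 1.08. Doublets also carried part of the mural Apoe, and without them the mural levels were 529 CPM in Control and 305 in TBI.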

How the results depend on the processing

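No paired analysis was possible because the animals of a condition were pooled into 1 library and the count tables carry no replicate number, and leaving out a replicate was not possible for the same reason. Of 778 values of single genes under 14 planned and 3 added alternatives, 751 kept their direction and moved little, and of 274 values that answer a comparison 247 did. The cause of the shifts below was not tested unless the alternative itself sets it. One value turned: Apoe in neuroblasts was 1.08 without doublets (0.660 with them), and 0.811 without integration. Apoe in oligodendrocytes ranged from 1.43 to 1.58, and was 1.49, under the fold, when mitochondrial and ribosomal genes were left out of the scaling. Mvd in NSC was under 1.5-fold without integration. With mitochondrial UMIs of at most 10%, 7 members were higher in OPC than in oligodendrocytes (4 otherwise), the ratio of enzyme sums of astrocyte-like cells to oligodendrocytes was 1.99 in TBI (1.87 otherwise), and the thinned Apoe share was 90.1% in Control oligodendrocytes and 16.6% in Control neuroblasts (85.4% and 21.0% otherwise). With every cell weighted equally, the enzyme ratio of OPC to oligodendrocytes in Control was 1.15 and that of astrocyte-like cells to oligodendrocytes was 2.24 in Control and 2.03 in TBI. The TBI ratio of progenitors to neuroblasts was 1.25 without integration and 1.26 without the Eomes-rich progenitor cluster (1.41 otherwise). Without the oligodendrocyte cluster richest in TBI cells, the astrocyte to oligodendrocyte ratio in TBI was 1.79 and the Apoe share in TBI oligodendrocytes 91.1%. Counted as pairs of a member and a population, the main rule gave 3 higher in TBI and 5 lower. A minimum of 20 UMIs in both libraries together and 5 in each gave 11 pairs higher and 17 lower. A fold of 2 gave 0 and 1. A gene can count in several pairs. With a fold of 1.5 between populations, 8 members were higher and 5 lower in OPC than in oligodendrocytes, 9 higher and 2 lower in progenitors than in neuroblasts, and 4 lower in endothelial than in mural cells. A minimum of 50 UMIs left 0 lower in endothelial cells (2 otherwise). For these counts, and those under the mitochondrial limit, the share of all genes called by the same alternative is not given. They show how the calls moved and are not a result about the members. At 1000 UMIs the Apoe shares of Control and TBI cells were 70.3% and 81.5% in oligodendrocytes, 11.0% and 8.63% in neuroblasts and 56.7% and 63.5% in endothelial cells. Depth limits OPC most, where 2 of 31 genes could be compared between conditions.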

Other observations

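Outside the 8 populations, an unnamed cluster of 12 Control and 19 TBI cells led by Spp1, Dcn and Lum held 9680.0 and 7067 CPM of Apoe, from 393 and 544 UMIs. Of the 8 populations, the astrocyte-like cells alone had a higher level. The cells nearest to the microglia markers, 38 in Control and 88 in TBI, held 665 CPM in Control and 2162 in TBI of Apoe (95% intervals 554 to 792 and 2028 to 2303). They pool a cluster of 21 Control and 62 TBI cells led by Cx3cr1, with 478 and 1288 CPM, and one of 17 and 26 cells led by Ccl5, Gzma and Lyz2, with lymphocyte genes such as Nkg7 and Ighm among its leading genes, with 1646 and 10158 CPM. The astrocyte markers in these cells summed to 238 CPM in Control and 375 in TBI, and their part in the Apoe levels was not tested. Thinned to 2000 UMIs, 46.2% (exact 95% interval 26.6 to 66.6) of 26 Control and 63.4% (exact 95% interval 51.1 to 74.5) of 71 TBI cells held an Apoe UMI, so the intervals of the shares overlapped while those of the levels did not. These cells are few and come from 1 library per condition.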
